A study of Mus musculus with 8 samples.

Results

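The miR-29 family in the mouse is represented on this array by 3 mature miRNAs, mmu-miR-29a, mmu-miR-29b and mmu-miR-29c (miR-29a, miR-29b and miR-29c below), out of 611 mouse miRNAs measured. They were chosen by name, as the mature strands of the family, and all 3 were detected on all 8 arrays. The arrays were hybridised with RNA of regions cut under a fluorescence microscope from mammary glands of 5-week-old female β-actin-GFP reporter mice of the FVB/n strain, with 100 ng of total RNA for each array. Terminal end buds (TEBs), the club-shaped growing tips of the pubertal ductal tree, were measured on 3 arrays, mature ducts on 2 and distal stroma, the fat pad ahead of the tree, on 3. The reporter was carried by all 3 tissues and there was no treatment. Nothing in the labels or the methods ties an array to an animal, so the p-values below measure only the spread between these arrays. They would be too small if arrays of the same tissue shared an animal. Sharing of an animal between tissues is not taken into account in the main fit.

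A miRNA is a short RNA that guides the Argonaute protein to messages that pair with its seed, the stretch near its 5′ end, and the message is then degraded or less translated. The miR-29 family is best known as a set of repressors of extracellular matrix genes, among them fibrillar collagens, elastin and fibrillin, and its levels commonly fall in fibrotic tissue. In the mammary gland, collagen is laid down by fibroblasts around ducts and around the neck of the TEB, and miR-29 has been studied in luminal differentiation.

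The mature sequences are shown because the members differ by only a few bases, which bears on how well a hybridisation probe can separate them. They are taken from RefSeq on GRCm38.p6, where all 3 names matched the 3p strand, and the seed, bases 2 to 8 from the 5′ end, is in capitals.
miR-29a: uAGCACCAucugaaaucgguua
miR-29b: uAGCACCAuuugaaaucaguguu
miR-29c: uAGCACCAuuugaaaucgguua
All 3 members carried the seed AGCACCA, and no other of the 1679 mature miRNA names in that table did. Counted from 1 at the 5′ end, miR-29a and miR-29c differed at 1 of 22 bases, C10U. The change from miR-29b to miR-29c took 3 bases, A18G, G21U and U22A, all near the 3′ end. Between miR-29a and miR-29b there were 4 differences, C10U, G18A, U21G and A22U. The array's probe sequences were not used here, and the share of signal that one member's RNA gives on another member's probe was not tested.

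The family is encoded in 2 clusters. The miR-29a sequence lies at chr6:31062673-31062694 on the minus strand, in the Mir29a hairpin, and the Mir29b-1 hairpin on the same strand holds miR-29b at chr6:31063025-31063047. Those hairpins are separated by 275 bases. On chromosome 1, plus strand, Mir29b-2 gives the identical miR-29b at chr1:195037091-195037113 and Mir29c gives miR-29c at chr1:195037600-195037621, with 426 bases between the hairpins. Signal on the miR-29b probes is therefore the sum of both loci, and the array cannot separate them.

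The deposited value of a miRNA is the scanner software's total signal in intensity units, with background subtracted and no normalization between arrays. Between 23.2% and 27.7% of mouse miRNAs were detected on an array. Summed over these miRNAs, the intensity was 54238.6 to 71694.1 on stroma arrays, 64772.7 to 75991.1 on TEB arrays, and 86267.1 and 88828.3 on duct arrays. Because ducts were brighter, the arrays were scaled to a common 75th percentile, taken over the 108 miRNAs that every array detected, with factors of 0.75 to 1.36. Values below are scaled signals unless stated otherwise, and levels of different miRNAs are not compared because each has its own probes.

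The tissue labels were checked against marker miRNAs. Each of the 6 markers of epithelium (the miR-200 family and miR-205) was found in all duct and TEB samples and on no stroma array. The miR-199a and miR-214 markers of fibroblasts were detected in every array, with a summed scaled signal of 2382 to 2895 in stroma, 3322 to 3423 in ducts and 3100 to 3718 in TEBs. The labelled stroma thus lacked these epithelial miRNAs, while its fibroblast sum was below that of every duct and TEB array. Of the fibroblast markers, 2 of 3 passed the test described below as higher in ducts and 3 of 3 as higher in TEBs. Among all miRNAs tested, 9.58% and 20.4% passed in those directions. With the 75th percentile taken over all mouse miRNAs, the duct calls of miR-199a-5p and miR-214 were lost (limma adjusted p = 0.299 and 0.542). Their calls in TEBs were kept. In bulk tissue, a lower signal from fewer cells of a type and one from less RNA per cell cannot be told apart.

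Scaled levels of all 3 members were ordered in the same way, with the highest mean in stroma, then ducts, then TEBs. miR-29a, a member that represses collagen messages, gave scaled signals of 1490, 1665 and 1510 on the stroma arrays, 1150 and 1280 on the duct arrays, and 1028, 1022 and 938 on the TEB arrays. The tissue means were 1555 ± 96.1 (SD, n = 3) in stroma, 1215 ± 91.7 (n = 2) in ducts and 996 ± 50.4 (n = 3) in TEBs. Every stroma array lay above every duct array, and every TEB array lay below both duct arrays.

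miR-29b, which is produced from both clusters, varied most from array to array. Its scaled signals were 447, 521 and 413 in stroma, 299 and 390 in ducts, and 155, 332 and 275 in TEBs. The means were 460 ± 55.5 (SD, n = 3), 344 ± 64.3 (n = 2) and 254 ± 90.7 (n = 3). The stroma arrays were above all others, and the duct and TEB arrays overlapped, with TEB replicate 2 above duct replicate 1.

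miR-29c, which shares its 3′ end with miR-29a, gave scaled signals of 446, 455 and 351 in stroma, 246 and 274 in ducts, and 229, 255 and 230 in TEBs. The means were 417 ± 57.8 (SD, n = 3), 260 ± 19.6 (n = 2) and 238 ± 14.5 (n = 3). The lowest stroma array was above all duct and TEB arrays, and ducts and TEBs overlapped. From the lowest to the highest array the scaled signal spanned 1.78-fold for miR-29a, 3.37-fold for miR-29b and 1.99-fold for miR-29c. The scanner's own error was 8.95% to 9.16% of the signal for miR-29a, 9.96% to 13.3% for miR-29b and 7.26% to 7.79% for miR-29c.

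**Figure D1:**
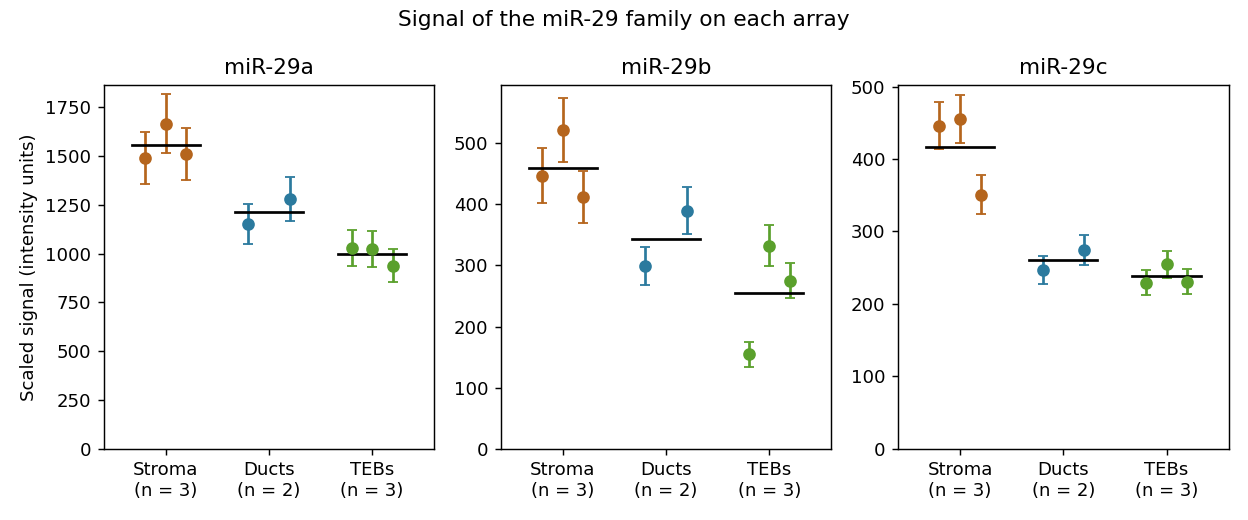
Scaled signal (intensity units, linear axis from 0, a separate scale for each miRNA) of miR-29a, miR-29b and miR-29c on each array of stroma, ducts and TEBs. Points are arrays, their bars the scanner software's error and black lines the tissue means. The 3 stroma arrays sit above all duct and TEB arrays in each panel, and the lowest miR-29b point is TEB replicate 1 at 155.

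All 3 members were lower in TEBs than in stroma. The comparison addresses which miRNAs separate the invading epithelial tips from the fat pad they grow into. miR-29a was 1.56-fold higher in stroma (95% confidence interval 1.34 to 1.82), with a log2 difference of TEBs minus stroma of -0.64 (SE 0.09) and an adjusted p of 0.00152 by limma with Benjamini-Hochberg adjustment over the 167 miRNAs tested. miR-29b was 1.89-fold higher in stroma (1.16 to 3.09), at -0.92 (SE 0.29, limma adjusted p = 0.0303). miR-29c was 1.74-fold higher in stroma (1.41 to 2.16), at -0.80 (SE 0.13, limma adjusted p = 0.00244).

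Such a difference was common in this comparison. Of the 167 miRNAs tested, 108 passed the threshold of 0.05, or 64.7%, and 74 of them, 44.3% of those tested, were lower in TEBs. The arrays of all 3 members did not overlap between TEBs and stroma, as was so for 71.9% of the miRNAs tested, 48.5% with TEBs below stroma. The median log2 difference over all 167 was -0.28, and 55 miRNAs had a more negative value than miR-29a, 39 than miR-29b and 46 than miR-29c. Relative to that median the members were lower in TEBs by log2 differences of -0.37, -0.64 and -0.52 in the order a, b, c.

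The split between directions depended on the scaling. Of the 108 calls, 68.5% were lower in TEBs. With the 75th percentile taken over all mouse miRNAs there were 66 calls and 42.4% were lower, without scaling 50% of 82 calls, with quantile normalization 58.8% of 102 calls, after normexp background correction 79.4% of 126, and in the authors' processed values 58.3% of 103. The members were lower in TEBs than in stroma under every one of these, but with the percentile over all mouse miRNAs the log2 differences shrank to -0.25, -0.53 and -0.41 for miR-29a, miR-29b and miR-29c, and without scaling to -0.39, -0.67 and -0.55, and none of them then passed.

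By the two-sided exact permutation test of each miRNA, p was 0.1 for the 3 members, which is the smallest that 3 arrays against 3 can give. The array positions recorded by the scanner, which the labels do not state, put the arrays in 2 slide rows, each with all 3 tissues. Row 1 held stroma replicate 1, duct replicate 1 and TEB replicates 1 and 2, and row 2 held the others. A difference within a row can therefore rest on 1 array of each tissue. Within row 1 the log2 differences of TEBs minus stroma were -0.54, -0.98 and -0.89 for miR-29a, miR-29b and miR-29c, and within row 2 -0.76, -0.75 and -0.79. Leaving out TEB replicate 1 changed the miR-29b difference from -0.92 to -0.60, and its call was lost without stroma replicate 1 (limma adjusted p = 0.0711) or stroma replicate 2 (0.0913).

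**Figure D2:**
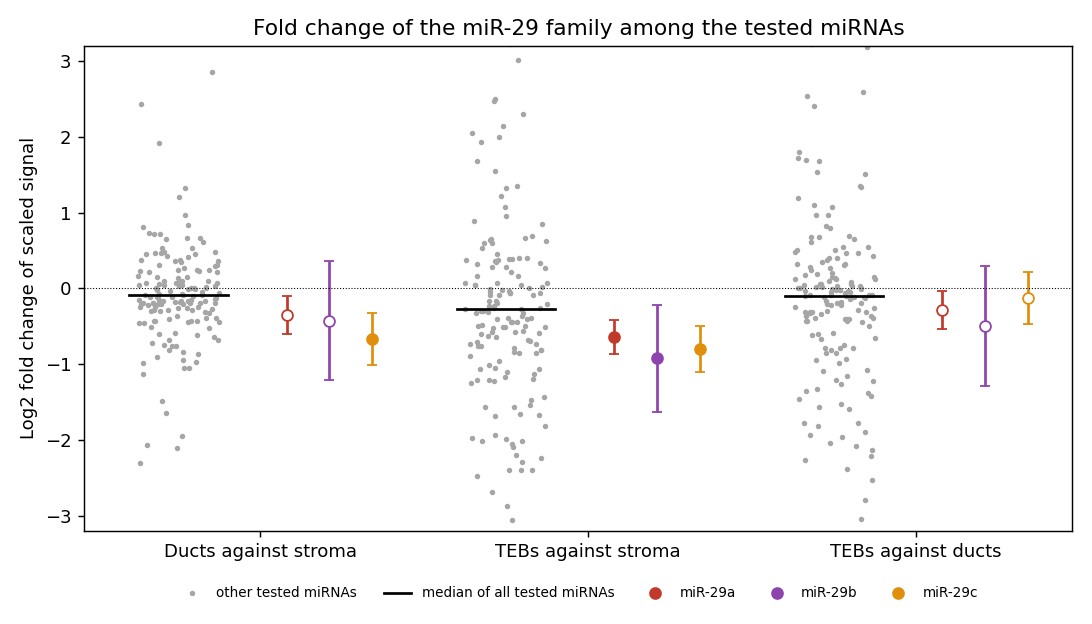
Log2 fold change of scaled signal (y axis) in the 3 tissue comparisons (x axis). Grey points are the other miRNAs tested, black lines the median of all 167, and coloured circles the members with 95% confidence intervals from limma, filled where the adjusted p was under 0.05. Beyond the axis lie 9, 14 and 5 grey points from left to right. All 9 member values are below 0 and below the median lines, and they lie within the spread of the other miRNAs.

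Between ducts and stroma only miR-29c among the 3 members passed the test. This comparison sets the differentiated epithelium against the fat pad. miR-29c was 1.60-fold higher in stroma (95% confidence interval 1.26 to 2.03), with a log2 difference of ducts minus stroma of -0.67 (SE 0.14, limma adjusted p = 0.0183). miR-29a was at -0.36 (SE 0.10, limma adjusted p = 0.0558) and miR-29b at -0.43 (SE 0.33, limma adjusted p = 0.434).

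In this comparison 36 of the 167 miRNAs passed, or 21.6%, and 20 of them, 12.0% of those tested, were lower in ducts. The arrays did not overlap for any of the 3 members, as was so for 42.5% of the miRNAs tested, 22.8% with ducts below stroma. The median log2 difference over all miRNAs was -0.09, and the members were at -0.27, -0.34 and -0.58 relative to it in the order a, b, c. The exact test again gave its smallest possible p of 0.1 for each. Within rows 1 and 2 the log2 differences were -0.37 and -0.31 for miR-29a, -0.58 and -0.25 for miR-29b, and -0.86 and -0.54 for miR-29c.

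The direction of the duct comparison rested on the scaling for 2 members. Before scaling, miR-29a was at 1458, 1387 and 1110 units in stroma and 1533 and 1595 in ducts, and miR-29b at 437, 434 and 303 in stroma and 398 and 486 in ducts, so that without scaling the log2 differences of ducts minus stroma were 0.26 and 0.19. miR-29c was at 436, 379 and 258 units in stroma and 328 and 342 in ducts, a log2 difference of -0.061 without scaling (limma adjusted p = 0.839). Without scaling the median of all miRNAs was 0.50 higher in ducts on the log2 scale, and all 3 members lay below that median. The miR-29c call was also lost with the percentile over all mouse miRNAs, at -0.83 (adjusted p = 0.188), and without either duct array, with adjusted p of 0.117 and 0.0532, or without stroma replicate 1 or 2 (0.0608 and 0.0545). Of the 36 calls 55.6% were lower in ducts, against 42.1% of 19 with the percentile over all mouse miRNAs, 7.14% of 56 without scaling, 79.7% of 69 after normexp background correction, and 45.9% of 37 in the authors' processed values.

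TEBs and ducts did not differ past the threshold in any member. This comparison bears on the change from the growing tip to the mature duct. The log2 differences of TEBs minus ducts were -0.29 for miR-29a (SE 0.10, limma adjusted p = 0.0726), -0.50 for miR-29b (SE 0.33, adjusted p = 0.284) and -0.13 for miR-29c (SE 0.14, adjusted p = 0.509). The 95% intervals ran from -0.54 to -0.036 for miR-29a, from -1.29 to 0.29 for miR-29b and from -0.47 to 0.22 for miR-29c. In the scaling used here the interval of miR-29b still holds a difference as large as the one between TEBs and stroma. Those of miR-29a and miR-29c do not. Without scaling, miR-29a was at -0.65 in TEBs minus ducts (limma adjusted p = 0.0261).

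Of the 167 miRNAs, 41, or 24.6%, passed between TEBs and ducts, 11.4% as higher and 13.2% as lower in TEBs. The arrays of miR-29a did not overlap between the 2 tissues, as was so for 65.3% of the miRNAs tested, 43.1% with TEBs below ducts, and those of miR-29b and miR-29c did. The exact p was 0.1, 0.4 and 0.3 for miR-29a, miR-29b and miR-29c. Within rows 1 and 2 the log2 differences were -0.17 and -0.45 for miR-29a, -0.40 and -0.50 for miR-29b, and -0.03 and -0.25 for miR-29c. Without TEB replicate 1 the miR-29b value was -0.17.

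With the percentile taken over all mouse miRNAs the direction turned for all 3 members, to 0.27, 0.055 and 0.42 on the log2 scale in the order a, b, c, while the median of all miRNAs moved from -0.10 to 0.45. The value of miR-29c also turned with quantile normalization and in the authors' processed values, to 0.093 and 0.090. Relative to the median of all miRNAs the members were at -0.18, -0.39 and -0.02 under both percentile scalings. A factor per array shifts the members and the median alike above the floor, so this match was fixed in advance. Of the 41 calls 53.7% were lower in TEBs, against 20% of 30 with the percentile over all mouse miRNAs, 84.0% of 75 without scaling, 31.7% of 41 with quantile normalization and 36.0% of 50 in the authors' processed values.

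**Figure D3:**
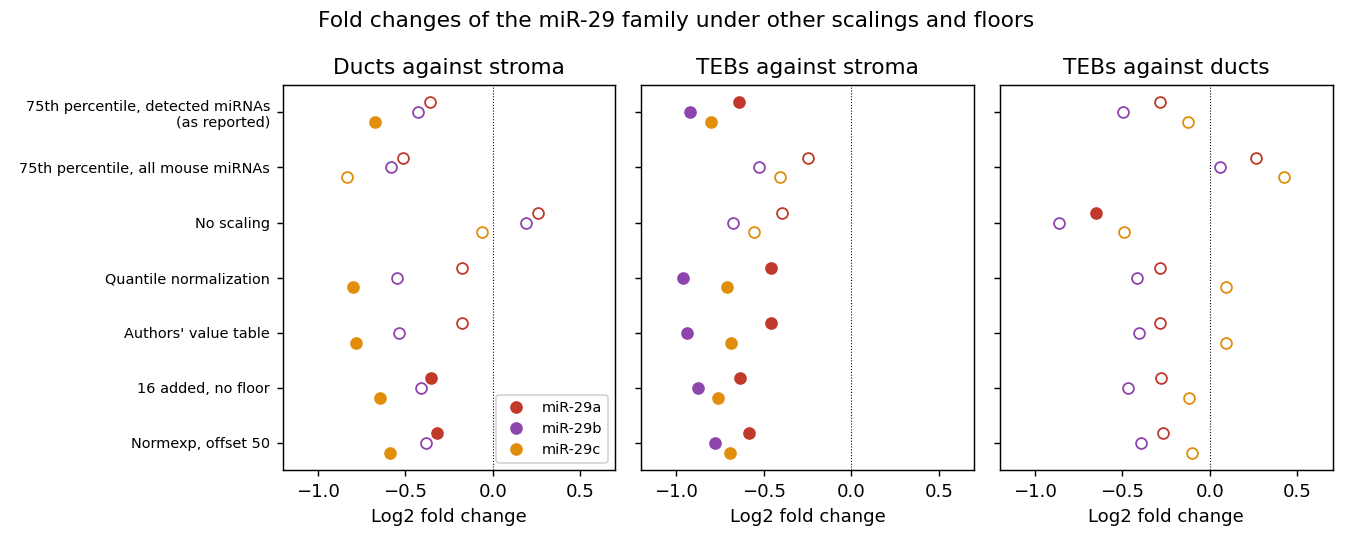
Log2 fold change (x axis) of miR-29a, miR-29b and miR-29c in the 3 comparisons under 7 ways of scaling, normalizing or treating low values (y axis). Filled circles had a limma adjusted p under 0.05. The TEB and stroma panel has all circles below 0, while unscaled values of miR-29a and miR-29b lie above 0 between ducts and stroma, and values scaled over all mouse miRNAs lie above 0 between TEBs and ducts.

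Taking TEBs and ducts together as epithelium gave a grouping in which an exact test could fall under the threshold, unlike the comparisons of 2 tissues. All 5 epithelial arrays were below all 3 stroma arrays for each member, as was so for 20.4% of the miRNAs tested. Arrays did not overlap in either direction for 33.5%. The log2 difference of epithelium minus stroma was -0.53 for miR-29a (two-sided exact permutation p = 0.0179, the smallest that 56 arrangements can give), -0.72 for miR-29b (exact p = 0.0536) and -0.75 for miR-29c (exact p = 0.0179). These correspond to scaled signals 1.44-, 1.65- and 1.68-fold higher in stroma. In rows 1 and 2 the log2 differences were -0.48 and -0.53 for miR-29a, -0.85 and -0.50 for miR-29b, and -0.88 and -0.67 for miR-29c. The 3 tests are given without adjustment. Without scaling the differences were -0.13, -0.33 and -0.36 for miR-29a, miR-29b and miR-29c, with exact p of 0.643, 0.5 and 0.179. With the percentile over all mouse miRNAs the exact p was 0.196, 0.143 and 0.0714 in the same order. With quantile normalization and in the authors' processed values it was 0.0714 for miR-29a and 0.0179 for miR-29b and miR-29c.

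Markers of other cell types differed between these tissues to unequal extents. The adipocyte markers miR-378, miR-193b and miR-365 had a summed scaled signal of 1313 to 1653 in stroma, 459 to 597 in ducts and 531 to 747 in TEBs, and 3 of 3 passed as lower in ducts and in TEBs, where 12.0% and 44.3% of all miRNAs tested passed in that direction. miR-126-3p, the marker of endothelium that was detected, was at 2757 to 3847 in stroma, 1906 to 2051 in ducts and 1312 to 1646 in TEBs, and passed as lower in both, while miR-126-5p was detected on no array. Leukocyte markers summed to 559 to 679 in stroma, 357 to 367 in ducts and 295 to 450 in TEBs, with miR-142-5p and miR-150 undetected, and of the other two 0 passed between ducts and stroma (adjusted p = 0.173 and 0.0558 by limma) and 1, miR-223, was lower in TEBs than in stroma. Their part in the differences of the miR-29 family was not tested. Among the remaining markers, the red cell sum was 1988 to 3577 in stroma, 2591 to 3276 in ducts and 1370 to 1902 in TEBs, with 0 of 2 markers passing between ducts and stroma (limma adjusted p = 1 and 0.542) and 2 of 2 lower in TEBs than in stroma, and miR-143, a marker of smooth muscle and myoepithelium, was at 67.9 to 89.2, 87.4 to 104 and 56.5 to 62.3 in the same order, with miR-145 undetected. miR-143 passed as lower in TEBs than in stroma (-0.40, limma adjusted p = 0.0353) and than in ducts (-0.61, 0.0274), and did not pass between ducts and stroma (0.383).

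The ratio of 2 members on the same array is the same under any scaling by a factor per array, though not under quantile normalization, and bears on whether the members changed unequally. The log2 ratio of miR-29b over miR-29a was -1.74, -1.68 and -1.87 in stroma, -1.95 and -1.72 in ducts, and -2.73, -1.62 and -1.77 in TEBs. The log2 ratio of miR-29c over miR-29a was -1.74, -1.87 and -2.11 in stroma, -2.22 and -2.22 in ducts, and -2.17, -2.004 and -2.02 in TEBs. That of miR-29c over miR-29b was -0.0032, -0.20 and -0.24 in stroma, -0.28 and -0.51 in ducts, and 0.56, -0.38 and -0.26 in TEBs.

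Only tissue differences of these ratios are read, because the ratio itself holds the brightness of different probes. Over 3 pairs and 3 comparisons, 9 exact permutation tests were made, none of which could give a p under 0.1, and 1 reached that value. That was miR-29c over miR-29b, lower in ducts than in stroma by a log2 difference of -0.25 (two-sided exact p = 0.1, not adjusted). The ratio of miR-29c over miR-29a differed by -0.32 between ducts and stroma (exact p = 0.2), by -0.16 between TEBs and stroma (0.3) and by 0.16 between TEBs and ducts (0.2). The ratio of miR-29b over miR-29a differed by -0.07, -0.28 and -0.21 in these comparisons (exact p = 0.6, 0.8 and 0.9), and the other differences of miR-29c over miR-29b were 0.12 between TEBs and stroma (exact p = 1) and 0.37 between TEBs and ducts (0.5). The arrays of miR-29c over miR-29a did not overlap between ducts and stroma or between TEBs and ducts.

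These ratios moved with quantile normalization. There 5 of the 9 tests were at an exact p of 0.1, among them the 3 of miR-29c over miR-29a, and miR-29c over miR-29b between ducts and stroma was at 0.2. The difference of miR-29b over miR-29a between ducts and stroma went from -0.069 to -0.37, and that of miR-29c over miR-29a from -0.32 to -0.63. In the authors' processed values they were -0.36 and -0.60, and miR-29c over miR-29b between ducts and stroma had an exact p of 0.3. With this number of arrays the exact tests cannot settle whether the members changed unequally.

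TEB replicate 1 had the lowest miR-29b signal of all arrays, while its miR-29a and miR-29c were near those of the other TEB arrays. Its miR-29b signal deviated from the mean of the other TEB arrays by -0.97 on the log2 scale, or 1.95-fold below it, and 2 of the 108 miRNAs detected on all arrays deviated more on that array. The median absolute deviation there was 0.19, and miR-29a and miR-29c deviated by 0.07 and -0.08. By the same measure miR-29b of TEB replicate 2 deviated by 0.69, and 1 of the 108 miRNAs deviated more on that array. That deviation is taken from a mean that includes the low value of replicate 1, so the 2 ranks are not independent. The log2 scaled signals of miR-29b were 7.27, 8.38 and 8.10 on TEB replicates 1, 2 and 3. Without TEB replicate 1 the log2 ratio of miR-29b over miR-29a in TEBs minus stroma turned from -0.28 to 0.067, that in TEBs minus ducts from -0.21 to 0.14, and the ratio of miR-29c over miR-29b in TEBs minus stroma from 0.12 to -0.18.

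**Figure D4:**
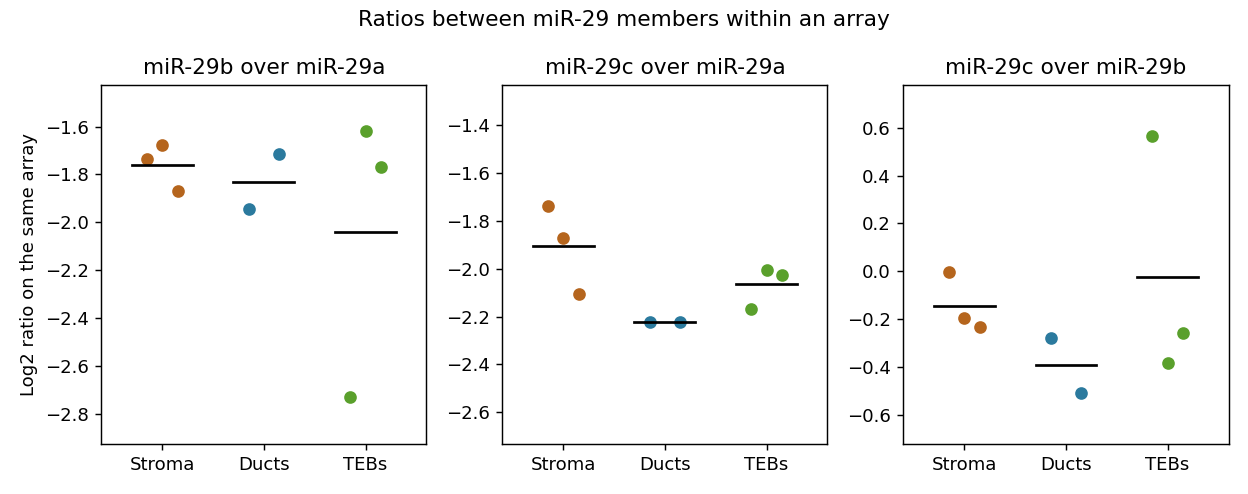
Log2 ratio of 2 members on the same array (y axis, equal span in each panel) in stroma, ducts and TEBs. Points are arrays and black lines tissue means. The TEB point at -2.73 in the left panel and the one at 0.56 in the right panel are both replicate 1, and all other ratios of miR-29b over miR-29a lie between -1.95 and -1.62.

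The opposite strands of the hairpins, marked by a star, are usually degraded after the mature strand is loaded. miR-29a* and miR-29b* were detected on no array, and their background-subtracted signals were below 0 on all 8. miR-29c*, the 5p strand of Mir29c at chr1:195037562-195037583 on the plus strand, was detected on 3 of 3 stroma, 1 of 2 duct and 0 of 3 TEB arrays. Its sequence, with bases 2 to 8 in capitals, shows that it has another seed than the mature members.
miR-29c*: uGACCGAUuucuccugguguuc
Scaled signals of miR-29c* were 25.1, 41.9 and 28.8 in stroma, 26.1 and 19.96 in ducts, and 9.12, 12.9 and 12.9 in TEBs, where it was not detected.

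miR-29c* was therefore lower in TEBs than in stroma, as its mature partner was. The fitted log2 difference of TEBs minus stroma was -1.44 (SE 0.25, limma adjusted p = 0.00319), no measured size since TEBs are below detection. It was -0.99 with quantile normalization and -0.71 in the authors' processed values. For TEBs minus ducts the fitted value was -0.99 (SE 0.27, limma adjusted p = 0.0466), again no measured size, with detection on 1 of 2 duct arrays. This call missed the threshold under most alternatives, among them the percentile over all mouse miRNAs (adjusted p = 0.216) and quantile normalization (0.131). Ducts minus stroma was -0.45 (SE 0.27, limma adjusted p = 0.29), and 0.16 without scaling.

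The miRNAs with tissue profiles most like each member were found by the root mean square difference of log2 values, each centred on its own mean over the 8 arrays, among 105 other miRNAs detected on all arrays. For miR-29a these were miR-26b at 0.0719, miR-23a at 0.0951, miR-10a at 0.0967, let-7g at 0.104 and miR-151-5p at 0.125. For miR-29c they were miR-193 at 0.0629, miR-103 at 0.0671, miR-30e at 0.128, miR-26b at 0.146 and let-7g at 0.148. For miR-29b, whose arrays scattered more, the nearest were miR-126-3p at 0.276, miR-193 and miR-26b at 0.282, miR-30a at 0.285 and miR-103 at 0.287.

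No member was among the 5 nearest of another. The difference between miR-29a and miR-29c was 0.161, between miR-29b and miR-29c 0.306 and between miR-29a and miR-29b 0.335 on the same measure. With both members included as candidates, miR-29c ranked 15 of 107 for miR-29a, and miR-29a ranked 6 for miR-29c. The values are descriptions over 8 arrays of 3 tissues that share their scaling. With quantile normalization 3, 3 and 2 of the 5 nearest remained for miR-29a, miR-29b and miR-29c, and with a Pearson distance 1, 2 and 2.

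The nearest profiles shared the lower level in TEBs. miR-26b, which is embedded in a phosphatase gene and near to miR-29a, was at -0.73 in TEBs minus stroma (SE 0.11, limma adjusted p = 0.00153), and miR-103, a miRNA known for its role in insulin sensitivity and near to miR-29c, at -0.81 (SE 0.11, adjusted p = 0.00107). In ducts minus stroma miR-103 was at -0.68 (SE 0.12, adjusted p = 0.00791) and miR-26b at -0.36 (SE 0.12, adjusted p = 0.0821). The profiles were chosen for their likeness, so these values describe it and add no support.

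Other miRNAs linked in the literature to collagen, connective tissue growth factor or fibrosis did not move together in the scaling used here. Of a list of 12, 10 were tested, and miR-145 and miR-155 were detected on no array. Between TEBs and stroma 4 were higher in TEBs, 4 were lower and 2 did not pass, where 20.4% and 44.3% of all miRNAs tested passed as higher and lower, with a median log2 difference of 0.04 against -0.28 over all miRNAs tested, while the 3 miR-29 members were all lower.

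The 4 that were lower in TEBs than in stroma were miR-30c and miR-26a, both known to repress connective tissue growth factor, miR-192, a kidney fibrosis miRNA, and let-7d, a let-7 member. Their log2 differences were -1.07 (SE 0.14, limma adjusted p = 0.00107), -0.60 (SE 0.13, 0.00731), -0.40 (SE 0.14, 0.0422) and -0.30 (SE 0.08, 0.0185). With the percentile over all mouse miRNAs all 4 of these calls were lost, with limma adjusted p of 0.0866, 0.596, 0.986 and 0.825 in the same order, and let-7d had the opposite sign. After quantile normalization let-7d and miR-192 were close to 0 with the opposite sign. The 4 that were higher were miR-18a and miR-19b of the miR-17-92 cluster and the fibroblast miRNAs miR-199a-5p and miR-214. miR-18a was not detected in stroma and was at least 10.3-fold higher in TEBs (limma adjusted p = 5.82e-05), and miR-19b, miR-199a-5p and miR-214 were at 1.08 (SE 0.11, adjusted p = 0.000299), 0.69 (SE 0.13, 0.0048) and 0.85 (SE 0.10, 0.000583). These 4 calls were kept with the percentile over all mouse miRNAs. The larger of the 2 that did not pass was miR-133a, at -0.51 (SE 0.35, adjusted p = 0.249).

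Between ducts and stroma 4 of the 10 passed, all higher in ducts, where 9.58% of all miRNAs tested passed in that direction, with a list median of 0.31 against -0.09 over all. These were miR-199a-5p at 0.73 (SE 0.15, limma adjusted p = 0.0153), miR-214 at 0.53 (SE 0.11, 0.0167), miR-19b at 0.47 (SE 0.12, 0.034) and miR-18a, which was at least 1.71-fold higher in ducts (adjusted p = 0.00377). The largest value that did not pass was that of miR-133a, a muscle miRNA, at 0.66 (SE 0.40, adjusted p = 0.291). With the percentile over all mouse miRNAs miR-199a-5p, miR-214 and miR-19b did not pass (limma adjusted p = 0.299, 0.542 and 0.586), and miR-18a did not with quantile normalization (0.0671) or in the authors' processed values (0.0622). The values of miR-18a and miR-133a had the opposite sign after normexp background correction.

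Between TEBs and ducts miR-18a at 2.59 (SE 0.43, limma adjusted p = 0.0134) and miR-19b at 0.61 (SE 0.12, 0.0173) were higher in TEBs, miR-30c at -0.67 (SE 0.16, 0.025) was lower and 7 did not pass, with miR-133a at -1.16 (SE 0.40, 0.0657) the largest of these. The miR-30c call was lost with the percentile over all mouse miRNAs, at -0.12 (limma adjusted p = 0.756), with quantile normalization, at -0.39 (0.107), and in the authors' processed values, at -0.34 (0.111).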

How the data were processed

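RNA of microdissected TEBs (3 arrays), ducts (2) and stroma (3), grouped by the tissue in the labels, was hybridised on the Agilent SurePrint Mouse miRNA Array V2. The authors deposited, from Agilent Feature Extraction 9.5.3 (named in the submitters' processing notes), a total signal intensity per miRNA with background subtracted, its error and a detection flag, a score of 0 or 1. The authors also deposited a table of processed values that fit a log2 scale. Its columns correlated with the log2 scanner signals with Pearson r of 0.950 to 0.972 and share their maximum of 16.5, and their medians were 0.139 to 1.48. Its normalization is not given in the sources used here, and it served as an alternative.

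The 39 viral probes and 22 control rows were left out, which kept 611 mouse miRNAs. Arrays were multiplied so that each 75th percentile over the 108 miRNAs detected on all arrays equalled the geometric mean of the 8 percentiles, a floor of 1 was set and log2 was taken. Fold changes are differences of tissue means of these log2 values. The linear model of limma 3.58.1 with moderated variances (R 4.3.3) was fitted to all 8 arrays and to the 167 miRNAs that at least 1 tissue detected on all its arrays, with Benjamini-Hochberg adjustment within each comparison at 0.05. Exact permutation tests were two-sided. A miRNA detected on no array of a tissue has only a bound there. The bound sets the brighter tissue's mean log2 value against the mean, over the dimmer tissue's arrays, of the higher of the miRNA's own signal and the lowest signal of any detected miRNA. For miR-29c* in TEBs its own signal was the higher on every array, so no bound is given and the fitted value is printed.

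On simulated arrays with 30 of 108 miRNAs changed, for TEBs against stroma, 89% of changes of the size -0.7 on the log2 scale were recovered. The simulated noise was independent between miRNAs, with no scaling error shared across an array. The share averages over miRNAs of unlike spread, so it does not give the recovery of a single member in the real arrays. The number of arrays limits the precision. Alternatives covered the scaling, floor, background correction, detection filter, variance estimate, arrays fitted, replicate block, slide row, the processed values, the t-test that the methods name and leaving out each array. The members and the lists were chosen with earlier results of these data known. Named miRNAs are the members, their star strands, the 5 nearest profiles of each member, and from the fibrosis list those that passed plus the largest that did not. miR-103 and miR-26b were picked from the nearest profiles after their values were seen. Sequences and coordinates are from RefSeq (GRCm38.p6).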

Additional observations from a re-analysis of the deposited data

How the results depend on the processing

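Direction was kept under all alternatives for the 3 members between TEBs and stroma, for miR-29c between ducts and stroma, and for epithelium against stroma. Other directions of the members' tissue differences turned only with another scaling or none, quantile normalization or the processed values. Calls of the members also changed with the floor, background correction, detection filter, variance estimate, test, slide row or an array left out. The cause was not tested.

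With the 75th percentile over all mouse miRNAs, 19 miRNAs passed between ducts and stroma (36 in the main analysis) and 66 between TEBs and stroma (108). The log2 differences were then -0.83 for miR-29c in ducts against stroma (adjusted p = 0.188), -0.25, -0.53 and -0.41 for miR-29a, miR-29b and miR-29c in TEBs against stroma (0.498, 0.240 and 0.312), 0.27, 0.055 and 0.42 in TEBs against ducts, and -0.36 and -0.58 for miR-29a and miR-29c in epithelium against stroma (exact p = 0.196 and 0.0714), and let-7d in TEBs against stroma was at 0.090. Without scaling 56 passed between ducts and stroma and 75 between TEBs and ducts (41). The values were 0.26, 0.19 and -0.061 for the members in ducts against stroma, -0.39, -0.67 and -0.55 in TEBs against stroma (adjusted p = 0.0734, 0.110 and 0.0658), -0.65 for miR-29a in TEBs against ducts (0.0261), -0.13 and -0.36 for miR-29a and miR-29c in epithelium against stroma, and 0.16 for miR-29c* in ducts against stroma. With quantile normalization miR-29c in TEBs against ducts was at 0.093, miR-29a and miR-29b in epithelium against stroma at -0.35 (exact p = 0.0714) and -0.80 (0.0179), and miR-192 and let-7d in TEBs against stroma at 0.020 and 0.0034. In the authors' processed values these were 0.090, -0.34 (0.0714), -0.78 (0.0179), 0.016 and 0.0034.

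Adding 16 in place of the floor gave 71 calls between TEBs and ducts, normexp 69 between ducts and stroma and 27 between TEBs and ducts, and no detection filter 18 between TEBs and ducts. With normexp miR-133a and miR-18a in ducts against stroma were at -0.12 and -0.17. miR-29a in ducts against stroma passed with 16 added, at -0.35 (0.0430), with normexp, at -0.32 (0.0242), and at -0.36 with only miRNAs detected on all arrays (0.0328), with a trend and robust estimation (0.0170) and by the methods' t-test (0.0264, unadjusted). miR-29a in TEBs against ducts passed at -0.29 with a trend and robust estimation (0.0391) and by the unadjusted methods' t-test (0.0371). miR-29c in ducts against stroma, at -0.67, did not pass without a detection filter (0.0635), in a fit on the 2 tissues alone (0.0618) or by the methods' t-test after adjustment (0.114). miR-29b in TEBs against stroma, at -0.92, did not pass without a filter (0.115) or by the methods' t-test (0.0825 adjusted, 0.0563 unadjusted), nor with slide row as a covariate, at -0.85 (0.0624). The adjusted methods' t-test gave 12 calls between TEBs and ducts, and its unadjusted counts in ducts against stroma, TEBs against stroma and TEBs against ducts were 47, 108 and 53.

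For same-numbered arrays of different tissues, deviations from the tissue mean had a mean r of -0.104 over 7 pairs (-0.51 to 0.36). The mean over 14 other pairs was 0.0518. With so few arrays in a tissue, the deviations offset each other, which ties the correlations of its arrays together. These means therefore cannot show whether same-numbered arrays belong together, and the numbers were not taken as pairs in the main fit. With the replicate block 16 miRNAs passed between TEBs and ducts, and no call of a member changed. Of the fibrosis list, the block ended the calls of miR-18a (adjusted p = 0.0606), miR-19b (0.0608) and miR-30c (0.0713) between TEBs and ducts and of miR-19b (0.0973) and miR-214 (0.0554) between ducts and stroma, and miR-133a passed between TEBs and ducts (0.0278) and between TEBs and stroma (0.0410).

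The fitted log2 difference of miR-29c* in TEBs against ducts (-0.99, no measured size since TEBs are below detection) did not pass with the percentile over all mouse miRNAs (-0.44), quantile normalization (-0.37), normexp (-0.20), the processed values (-0.25), the replicate block (-1.003), slide row (-0.96) or, at -0.99, without a filter, with a trend and robust estimation, in a fit on 2 tissues or by the adjusted methods' t-test, and it ran from -1.18 to -0.79 over arrays left out. In ducts against stroma it passed with quantile normalization (-0.62), normexp (-0.42) and the processed values (-0.46).

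Leaving out each array in turn gave, for miR-29a, miR-29b and miR-29c, log2 differences of -0.43 to -0.28, -0.62 to -0.23 and -0.79 to -0.60 in ducts against stroma, -0.67 to -0.59, -1.15 to -0.60 and -0.92 to -0.73 in TEBs against stroma, -0.36 to -0.21, -0.72 to -0.17 and -0.20 to -0.05 in TEBs against ducts, and -0.59 to -0.48, -0.85 to -0.51 and -0.87 to -0.68 in epithelium against stroma. In the last comparison miR-29a was at an exact p of 0.0571 without duct replicate 1, TEB replicate 1 or TEB replicate 2. The counts ranged from 22 to 40, 81 to 114 and 5 to 45, lowest without duct replicate 1, stroma replicate 2 and TEB replicate 2, and TEBs against ducts gave 7 without duct replicate 1 and 25 without duct replicate 2. Ratios of miR-29b over miR-29a ran from -0.18 to 0.045 in ducts against stroma (0.045 without duct replicate 1), from -0.49 to 0.067 in TEBs against stroma and from -0.42 to 0.14 in TEBs against ducts. Those of miR-29c over miR-29a ran from -0.42 to -0.23, -0.26 to -0.076 and 0.13 to 0.21, and those of miR-29c over miR-29b from -0.36 to -0.13, -0.18 to 0.30 and 0.073 to 0.55. The fit without a duct array assumes that the lone duct array varies like the other tissues. A signal near background limits miR-29c*, miR-18a and miR-133a.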
